A study of Mus musculus with 435 samples.

Results

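The 46 genes described here encode cytochrome P450 enzymes, and their messenger RNA was followed in the livers of 2 mouse strains on 2 diets. They are the genes of the array's probe table whose symbol begins with Cyp and a digit and whose probe gave a value on at least 100 arrays, with Cyp4a14 left out by the choice of members; each is read by 1 probe, and the array holds 17280 probes in all. Of the 46, 41 were measured on enough arrays of every strain and diet to be tested over 9 weeks, beside 12587 tested probes in total. Cyp1a1, Cyp1a2, Cyp7a1, Cyp11a1 and Cyp51 were measured on too few arrays for those tests. They are given as levels and enter only the diet tests within single weeks.

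Cytochrome P450 enzymes are haem proteins that insert an oxygen atom into small molecules. In hepatocytes, families 1 to 3 mainly oxidise drugs and other foreign compounds, family 4 mainly hydroxylates fatty acids and eicosanoids, and smaller families build or break down bile acids, steroid hormones and vitamins A and D. Many of these genes are controlled by nuclear receptors that sense lipids, bile acids and foreign chemicals, and in the mouse several are expressed at different levels in male and female liver.

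Each array compared total liver RNA of a mouse, labelled with Cy5, with a Cy3-labelled reference pooled from 10 tissues of C57 mice, of which liver and kidney each made up 26%. The mice were of the strain AJ or C57 and were on a diet high or low in fat. As far as the labels say, the groups differ in strain, diet and week alone and share the tissue and the make-up of the pool. Week 0 and weeks 1, 3 to 7 and 9 to 11 are used, and the age and sex of the mice, the substrain of C57 and the make-up of the diets are not given in the sources used here. The fits over time rest on 350 arrays in 36 groups of 8 to 10 arrays, with 88 arrays for C57 on the high-fat diet, 87 for C57 on the low-fat diet, 87 for AJ on the high-fat diet and 88 for AJ on the low-fat diet.

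A value is the log2 ratio of liver to the pool, set to 0 at the median probe of its array; a value of 1 is a liver-to-pool ratio 2 times that of the median probe. Because the pool holds liver itself, genes expressed in liver alone cannot reach very high ratios, and a ratio near 0 does not mean low expression in liver. Arrays carried between 2273 and 14929 measured probes (median 11431), and week 0 arrays fewer (median 5007). Of the 40 arrays of week 8, 28 correlated below 0.15 with the median of all arrays and the week was left out, as were 4 further arrays below that value; 2 columns that repeated another were dropped. The tissue label was checked on 20 tested hepatocyte markers: 19 lay above the array median, with weekly medians between 0.38 and 1.25, whereas 12 kidney markers had a median level of -0.49 and 9 skeletal muscle markers a median of -0.75. The labels number the samples of a group without saying that each is a separate mouse, so the spread behind every p-value, between weekly group means or between arrays, may be partly technical.

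The 250 bases ahead of the annotated start are shown for 4 of the 6 genes that passed the comparison between strains reported further on. Cyp2d26 and Cyp27b1, which also passed, are not printed. The sequences come from a single reference build, so nothing about a difference between the strains is read from them. Of the 4 genes shown, 3 are of subfamily Cyp2c on chromosome 19: Cyp2c37 and Cyp2c29 were higher in C57 and Cyp2c40 was lower. The other is Cyp8b1, the bile acid gene with the largest difference. Sequences are from RefSeq on the build GRCm38.p6 and run 5′ to 3′ on the strand of the gene, at chr19:39992174-39992423 (plus strand), chr19:39286835-39287084 (plus), chr19:39812815-39813064 (minus) and chr9:121916306-121916555 (minus). Capitals mark matches, on either strand, to TATAAA (the TATA box), AGGTCA and AGTTCA (half-sites bound by nuclear receptors) and GTTAAT (a half-site of the liver factor HNF1); no marked matches overlap.
Cyp2c37: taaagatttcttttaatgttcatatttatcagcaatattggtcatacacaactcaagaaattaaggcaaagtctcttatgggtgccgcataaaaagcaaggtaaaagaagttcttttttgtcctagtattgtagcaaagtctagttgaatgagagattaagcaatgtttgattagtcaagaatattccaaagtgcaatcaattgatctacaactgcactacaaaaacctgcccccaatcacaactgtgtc
Cyp2c29: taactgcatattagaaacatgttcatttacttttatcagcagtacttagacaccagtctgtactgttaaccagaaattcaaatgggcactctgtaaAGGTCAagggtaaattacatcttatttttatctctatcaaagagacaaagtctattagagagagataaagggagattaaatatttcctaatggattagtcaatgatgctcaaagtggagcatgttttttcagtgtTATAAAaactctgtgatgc
Cyp2c40: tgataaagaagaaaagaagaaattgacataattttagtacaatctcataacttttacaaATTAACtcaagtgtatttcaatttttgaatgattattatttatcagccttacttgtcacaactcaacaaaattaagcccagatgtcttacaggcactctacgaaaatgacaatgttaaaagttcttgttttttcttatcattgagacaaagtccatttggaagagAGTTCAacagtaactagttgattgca
Cyp8b1: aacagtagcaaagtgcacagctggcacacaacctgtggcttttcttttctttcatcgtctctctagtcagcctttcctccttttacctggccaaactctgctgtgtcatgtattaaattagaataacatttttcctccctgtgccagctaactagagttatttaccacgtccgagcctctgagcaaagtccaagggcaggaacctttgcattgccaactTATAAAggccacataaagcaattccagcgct
Cyp2c37 held none of the 4 motifs in this window. Cyp2c29 held TATAAA with its first base 19 bases before the start and AGGTCA at 154 bases, Cyp2c40 held AGTTCA at 26 bases and the HNF1 half-site at 191 bases, and Cyp8b1 held TATAAA at 31 bases. Over all 32851 windows of this length in the table, TATAAA was present in 12.4%, AGGTCA in 14%, AGTTCA in 11.8% and GTTAAT in 6.43%. Over 43 windows of the 37 member genes with an entry, the shares were 23.3%, 18.6%, 18.6% and 6.98%. Aligned end to end, the windows of Cyp2c37 and Cyp2c29 were identical at 65.2% of bases, Cyp2c29 and Cyp2c40 at 60.8%, and Cyp2c37 and Cyp2c40 at 55.6%; Cyp8b1, a gene of another family, matched Cyp2c29 at 61.2%. All 5 Cyp2c members lie on chromosome 19, where the table lists 15 protein-coding Cyp2c genes. The sequences of the array's probes are not used here, so a probe of such a subfamily may also read close relatives; the same holds for the 3 Cyp2d, 4 Cyp2b, 3 Cyp2j and 4 Cyp4f members.

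The liver-to-pool ratios of the members lay on both sides of that of the median probe. Among the 41 tested genes, the highest mean ratios over the 4 combinations of strain and diet were those of Cyp2d22 (1.12), Cyp2d26 (0.84), Cyp2f2 (0.69), Cyp3a11 (0.51) and, level with each other, Cyp2c37 and Cyp2d40 (0.49). The lowest were those of Cyp4b1 (-1.88), Cyp1b1 (-1.10), Cyp2c39 (-0.81), Cyp2j6 (-0.78) and Cyp2c55 (-0.72). Cyp4b1 is known for its expression in lung and kidney and Cyp1b1 for its expression outside the liver. In all, 18 of 41 members lay above 0 with a median of -0.07, against 4679 of 12587 probes and a median of -0.16; without centring the members' median was -0.2. Levels of different genes are ratios to the pool and are not amounts of RNA.

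By subfamily, the 3 Cyp2d members were all above the array median (median 0.84) and the 4 Cyp2b members all below it (median -0.41). The Cyp2c members were spread: Cyp2c37 and Cyp2c29 (0.33) lay above 0 and Cyp2c40 (-0.45), Cyp2c55 and Cyp2c39 below. Of the Cyp3a members, Cyp3a11, the main drug-oxidising form of mouse liver, stood at 0.51 and Cyp3a13, which is also expressed in the intestine, at -0.51. The 4 Cyp4f members stayed near 0, between -0.25 and 0.04. Cyp2e1, which oxidises ethanol and is raised by ketone bodies, stood at 0.33.

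The members of most measured arrays show how wide single arrays were. Cyp2d22 was measured on 99.7% of the 350 arrays; in C57 on the high-fat diet its lowest, median and highest arrays stood at 0.04, 1.20 and 2.92, in C57 on the low-fat diet at 0.08, 1.06 and 2.46, in AJ on the high-fat diet at -0.35, 1.00 and 2.38, and in AJ on the low-fat diet at -0.09, 0.99 and 2.58. The 4 combinations overlapped almost entirely, and 345 of 349 arrays lay above 0. Cyp4b1 ran from -5.19 to 0.96 over 333 arrays, of which 23 lay above 0. The SD between arrays of a group had a median of 0.64 over the 41 members, from 0.27 for Cyp4a31 to 1.27 for Cyp27a1, which was measured on 53.7% of arrays.

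In the smaller families, the bile acid genes Cyp27a1 (0.40), which starts the acidic pathway of bile acid synthesis, and Cyp8b1 (0.30), which makes the precursor of cholic acid, lay above 0. Cyp7b1 (-0.54) and Cyp39a1 (-0.69), both oxysterol 7 alpha-hydroxylases, lay below, as did Cyp46a1 (-0.16), the cholesterol 24-hydroxylase of brain. Cyp7a1, the rate-limiting enzyme of bile acid synthesis, was measured on 37.4% of arrays, with a lowest, median and highest value of -3.62, -0.10 and 3.24, and Cyp51, the lanosterol demethylase of cholesterol synthesis, on 27.7% with -2.34, 0.37 and 4.52. Of the steroid hormone genes, Cyp21a1 stood at 0.43, Cyp17a1 at -0.11 and Cyp11b2 at -0.49; Cyp11a1, the cholesterol side-chain cleavage enzyme, was measured on 47.7% of arrays with a median of -0.12. The vitamin genes Cyp26a1 (retinoic acid breakdown), Cyp27b1 and Cyp24a1 (activation and breakdown of vitamin D) stood at 0.03, -0.20 and -0.45. Cyp1a2, a major P450 of liver, gave a value on 40.6% of arrays (median 0.83) and Cyp1a1, which is induced through the aryl hydrocarbon receptor, on 29.1% (median 0.50).

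**Figure D1:**
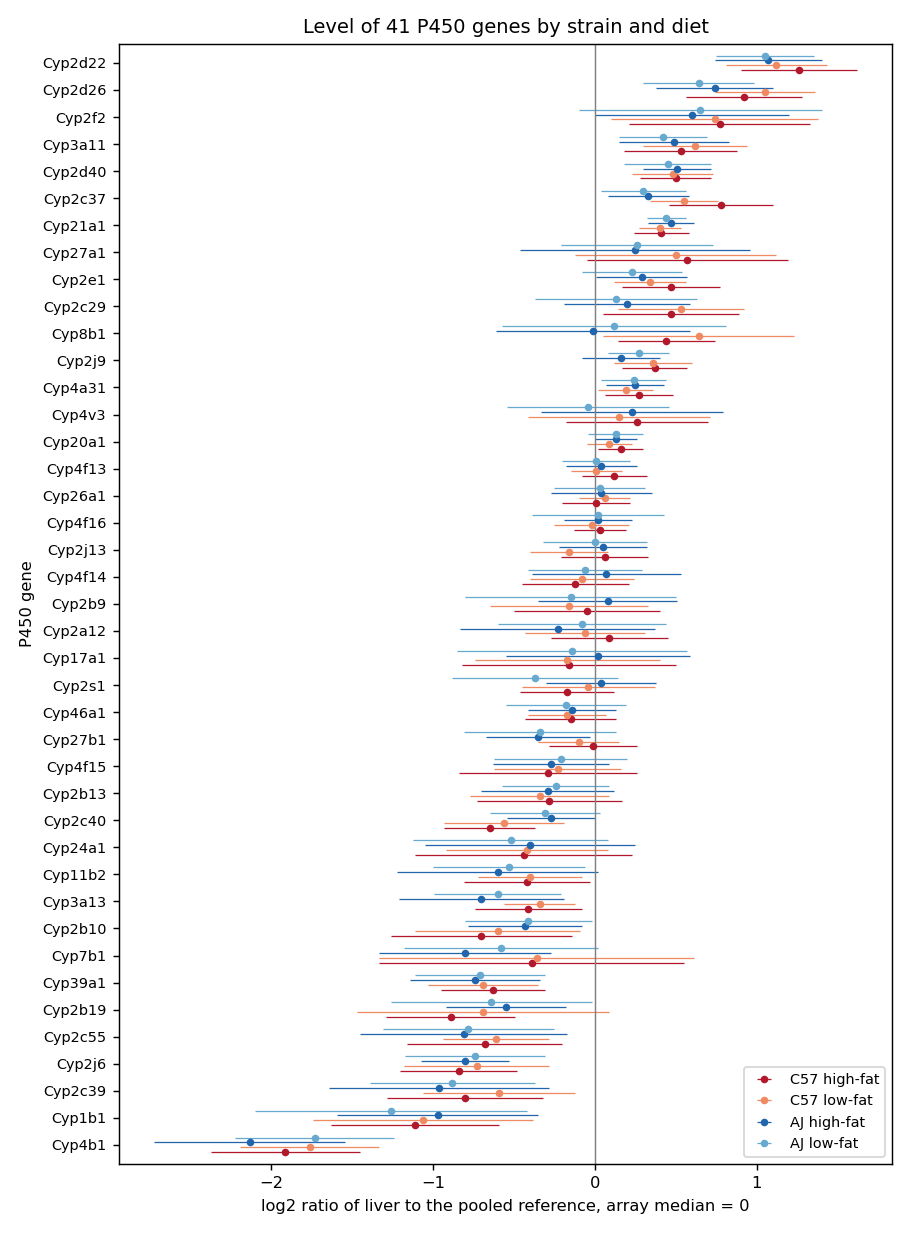
Mean log2 ratio of liver to the pooled reference (x axis) for the 41 tested P450 genes (y axis, ordered by their mean), in C57 and AJ mice on each diet. Points are means over weekly group means and bars their SD over up to 9 weeks; Cyp2d22 is highest at 1.12, Cyp4b1 lowest at -1.88, and for most genes the bars of the 4 combinations overlap.

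The term for week took a larger share of the variance of P450 messages than strain or diet did. It spans 9 weeks, whereas strain and diet have 2 levels each, so noise alone would also give it the larger share. The shares are not adjusted for this. For the 33 members with a value in all 36 groups, the term for week took a median of 63.2% of the variance among group means (40.6% to 84.6%), strain 1.86%, diet 0.479% and the strain-by-diet term 0.509%, with 30.5% left over. The same shares over 7821 probes measured in all groups were 59.2%, 1.56%, 0.729% and 0.462%, so the P450 genes were close to the array as a whole. An F test of the week term in limma, with Benjamini-Hochberg adjustment over these probes, called 33 of 33 members, against a background of 85% of all probes; this test was added after the values had been seen. Each week has its own arrays, and the age of the mice, the time on the diet and any step of sampling or hybridisation carried out week by week cannot be told apart.

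The range between a member's lowest and highest week, averaged over the 4 combinations, had a median of 0.82 (all probes 0.72). It was widest for Cyp7b1, which stood at 0.09 in week 7 and at -2.03 in week 11. Cyp2f2, which bioactivates naphthalene, lay at -0.10, -0.21 and 0.27 in weeks 1, 3 and 4, at 1.38, 1.27 and 0.75 in weeks 5, 6 and 7, and at 1.19, 1.05 and 0.66 in weeks 9, 10 and 11 (adjusted p = 1.1e-08, limma F test). Its 12 group means of weeks 1, 3 and 4 all lay below its 4 group means of week 5. Cyp17a1 stood at -0.91, -0.56 and -0.75 in weeks 1, 3 and 4 and at 0.58 in week 5. Cyp2b9, a form that is higher in female liver, went from -0.73 in week 3 to 0.62 in week 5. Cyp2b13, another female-biased form, went the other way, from 0.28 in week 1 to -0.74 in week 5, and Cyp11b2 from 0.06 in week 3 to -1.07 in week 5. Week 5 was the lowest week for 9 of the 33 members and the highest for 6. The same counts were not made over all probes, so these are not read as a trait of the P450 genes.

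The rise or fall by week was shared between the strains, whose arrays are separate. Across 9 weeks, the mean of C57 and the mean of AJ correlated with a median r of 0.697 over the 33 members (0.207 for Cyp2j9 to 0.921 for Cyp4b1), and with a median of 0.703 over all 7821 probes; the high-fat and low-fat means correlated with a median of 0.75. These are descriptions over 9 points that share the calendar of the study. Fitted on one strain at a time, the F test called 24 of 36 members in C57, against 52.6% of 8656 probes, and 24 of 35 in AJ, against 51.1% of 8559 probes.

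**Figure D2:**
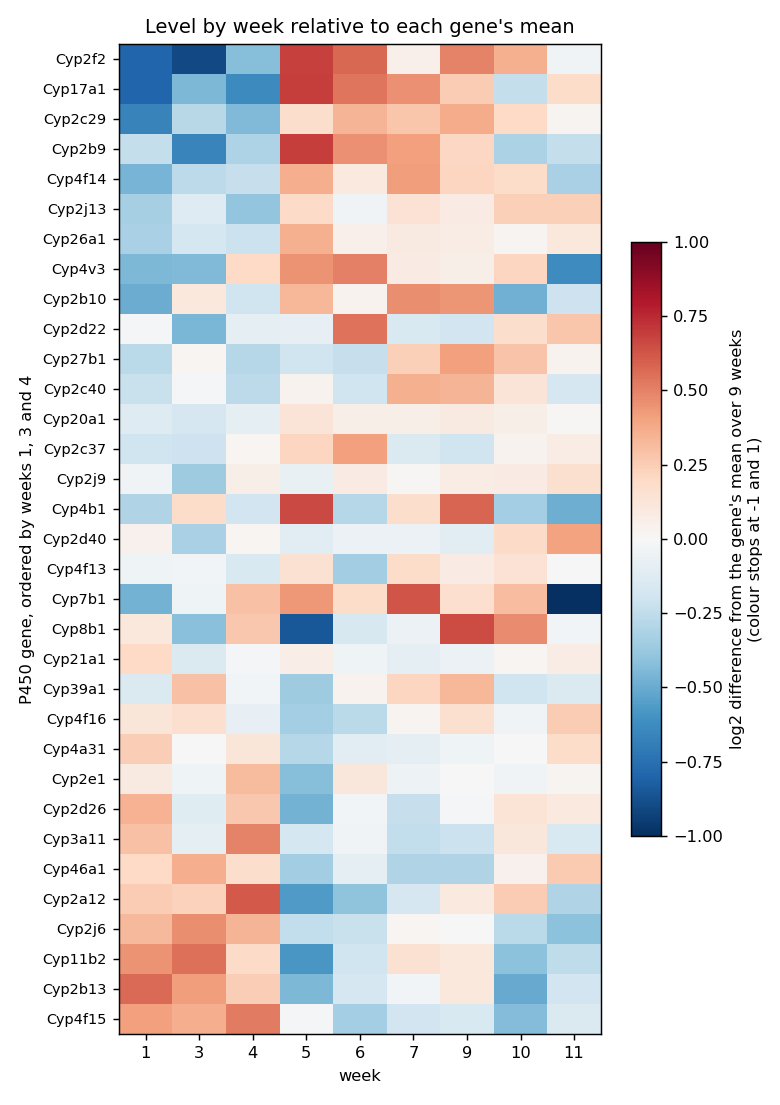
Level of 33 P450 genes by week (x axis, weeks 1 to 11 without weeks 2 and 8), averaged over both strains and diets and given as the log2 difference from the gene's own mean. Red is above and blue below that mean; Cyp2f2, Cyp17a1 and Cyp2b9 turn from blue in weeks 1 to 4 to red in week 5, Cyp2b13 and Cyp11b2 from red to blue, and Cyp7b1 is lowest in week 11.

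A straight line against week was fitted for each combination of strain and diet. No member passed an adjusted p of 0.05 in any of the 4, against a background of 1.86% of probes in C57 on the high-fat diet, 0.469% in C57 on the low-fat diet, 3.42% in AJ on the high-fat diet and 1.08% in AJ on the low-fat diet; unadjusted p-values under 0.05 were found for 5, 5, 6 and 9 of 41 members, against 17.6%, 13.9%, 19.6% and 17.6% of all probes. The nearest were genes of subfamily Cyp2c in AJ. Cyp2c39 had a slope of 0.1507 per week on the high-fat diet (SE 0.04, limma adjusted p = 0.0517) and Cyp2c29 0.1312 per week on the low-fat diet (SE 0.03, adjusted p = 0.055). In AJ on the low-fat diet the weekly means of Cyp2c29 were -0.85, -0.31, -0.21, 0.31, 0.29, 0.27, 0.64, 0.70 and 0.35 in order of the weeks. Both genes passed under some of the alternative settings given in the closing section.

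The other large slopes belonged to few genes. Cyp2f2 had positive slopes in all 4 combinations, of 0.0968 and 0.1292 per week in C57 on the high-fat and low-fat diet and of 0.1074 and 0.0991 in AJ, with adjusted p-values from limma of 0.373, 0.292, 0.293 and 0.365. Cyp2b13 had slopes of -0.1039 per week in C57 on the high-fat diet (adjusted p = 0.102) and -0.1004 on the low-fat diet (adjusted p = 0.163). Cyp7b1 and Cyp4f15, of the eicosanoid-hydroxylating Cyp4f subfamily, had slopes of -0.1341 and -0.1168 in C57 on the high-fat diet (adjusted p = 0.373 and 0.0854). Cyp2b19 and Cyp8b1 had slopes of -0.1108 and 0.1044 in C57 on the low-fat diet (adjusted p = 0.469 and 0.415), Cyp11b2 and Cyp17a1 -0.1188 and 0.1073 in AJ on the high-fat diet (adjusted p = 0.103 and 0.334), and Cyp1b1 and Cyp2c39 -0.1275 and 0.0945 in AJ on the low-fat diet (adjusted p = 0.316 and 0.260).

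Strain was compared week by week with diet held fixed. On the high-fat diet 1 of 41 members passed, Cyp2c37, a Cyp2c enzyme that oxidises arachidonic acid, against a background of 2.26% of probes; 9 had an unadjusted p under 0.05, against 12.2% of probes. In C57 on the high-fat diet its weekly means were 0.54, 0.52, 1.12, 1.06, 1.35, 0.43, 0.56, 0.67 and 0.74 in weeks 1, 3, 4, 5, 6, 7, 9, 10 and 11. In AJ on the high-fat diet Cyp2c37 stood at 0.11, 0.13, 0.25, 0.80, 0.46, 0.27, -0.02, 0.41 and 0.55. C57 was above AJ in 9 of 9 weeks, by 0.45 ± 0.09 (SE; 1.36-fold, limma adjusted p = 0.00343). On the low-fat diet the weekly means of Cyp2c37 were 0.26, 0.38, 0.74, 0.58, 0.90, 0.33, 0.49, 0.67 and 0.59 in C57 and 0.24, 0.10, -0.06, 0.36, 0.88, 0.34, 0.13, 0.33 and 0.37 in AJ; the difference there had an unadjusted p of 0.00857 and did not pass over all probes. Single arrays of the strains overlapped, with a lowest, median and highest of -0.12, 0.75 and 2.12 in C57 and -1.34, 0.29 and 1.55 in AJ on the high-fat diet.

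The other large differences on the high-fat diet were Cyp8b1 at 0.45 ± 0.17 (adjusted p = 0.228), Cyp7b1 at 0.41 ± 0.23 (adjusted p = 0.482) and Cyp2c40 at -0.38 ± 0.12 (adjusted p = 0.0953), all as C57 minus AJ. On the low-fat diet 0 of 41 members passed against a background of 1.18%, with 7 at an unadjusted p under 0.05 in limma against 9.58% of probes. The largest were Cyp8b1 at 0.52 ± 0.17 (adjusted p = 0.181), Cyp2d26 at 0.41 ± 0.12 (0.119), Cyp2c29 at 0.40 ± 0.11 (0.0758) and Cyp2s1, a form of epithelia, at 0.33 ± 0.14 (0.438).

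Averaged over both diets, a comparison added after the single diets had been seen, 6 of 41 members passed against a background of 4.69% of probes (590 of 12587), and 11 had an unadjusted p under 0.05, against 16.7%. Of the 6, 5 were higher in C57 (background 3.09%) and Cyp2c40 was lower (background 1.6%). The median difference over the 41 members was 0.07, against 0.00 over all probes, and 25 of 41 were positive. They comprise 3 Cyp2c genes, 1 Cyp2d gene, 1 bile acid gene and 1 vitamin D gene.

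Cyp2c37 differed by 0.35 ± 0.06 over both diets (1.27-fold, adjusted p = 0.000509, limma), with weekly differences of 0.22, 0.33, 0.84, 0.25, 0.45, 0.08, 0.47, 0.30 and 0.20. Cyp2c29, a form induced by phenobarbital, differed by 0.33 ± 0.08 (1.26-fold, adjusted p = 0.00689), with weekly differences of 0.36, 0.55, 0.26, 0.60, 0.38, 0.29, 0.44, -0.29 and 0.43. C57 was thus above AJ in 9 of 9 weeks for Cyp2c37 and in 8 of 9 for Cyp2c29, week 10 being the exception. Both kept an adjusted p under 0.05 whichever single week was left out.

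Cyp2c40, which is higher in female than in male liver, was lower in C57 by 0.32 on the log2 scale (difference -0.32 ± 0.08, adjusted p = 0.0188), with weekly differences of 0.14, -0.03, -0.50, -0.14, -0.47, -0.57, 0.03, -0.78 and -0.53. Its lowest, median and highest arrays were -3.17, -0.56 and 1.20 in C57 and -1.88, -0.22 and 0.63 in AJ on the high-fat diet, and -3.57, -0.40 and 0.62 and -2.20, -0.16 and 0.70 on the low-fat diet. The difference was between -0.14 and 0.14 in weeks 1, 3, 5 and 9 and between -0.78 and -0.47 in the other weeks. It did not pass when week 6, 7, 10 or 11 was left out (adjusted p = 0.0629, 0.0872, 0.0798 and 0.0744) or when week 8 was included (0.0981).

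Cyp8b1 differed by 0.49 ± 0.12 (1.4-fold, adjusted p = 0.0134), with weekly differences of -0.08, 0.90, -0.21, 1.03, 0.61, 0.24, 0.48, 0.52 and 0.90. Its arrays had a lowest, median and highest of -1.95, 0.46 and 2.47 in C57 and -3.81, 0.25 and 2.23 in AJ on the high-fat diet, and -2.33, 0.53 and 3.43 and -2.82, 0.24 and 2.47 on the low-fat diet. It was measured on 86.4% and 87.4% of C57 arrays and on 80.5% and 80.7% of AJ arrays. Without week 3, 5 or 11 it did not pass (adjusted p = 0.0557, 0.0768 and 0.0619).

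Cyp2d26, of the drug-oxidising Cyp2d subfamily, differed by 0.30 ± 0.09 (adjusted p = 0.044), with weekly differences of 0.50, 0.61, -0.02, 0.29, 0.51, 0.19, 0.23, -0.20 and 0.55. It passed with all 9 weeks and without week 4 or 10, and not without any of the other weeks (adjusted p = 0.0602 to 0.147). Cyp27b1 differed by 0.29 ± 0.08 (adjusted p = 0.03), with weekly differences of 0.77, 0.21, -0.06, 0.35, 0.58, 0.15, 0.06, 0.36 and 0.20. It did not pass without week 1, 3, 5, 7, 10 or 11 (adjusted p = 0.0507 to 0.129). These are the least stable of the 6 calls under the removal of a week.

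Members that did not pass included Cyp3a13 at 0.28 ± 0.09 (adjusted p = 0.0873) and Cyp2b10, the classical target of the receptor CAR, at -0.23 ± 0.10 (adjusted p = 0.231). Cyp7b1 (0.31 ± 0.16) and Cyp27a1 (0.30 ± 0.16) had differences of similar size with wider errors. For 38 of 41 members the 95% interval of the strain difference lay within 0.5 log2 units of 0 on either side; the exceptions were Cyp8b1, Cyp7b1 and Cyp27a1.

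**Figure D3:**
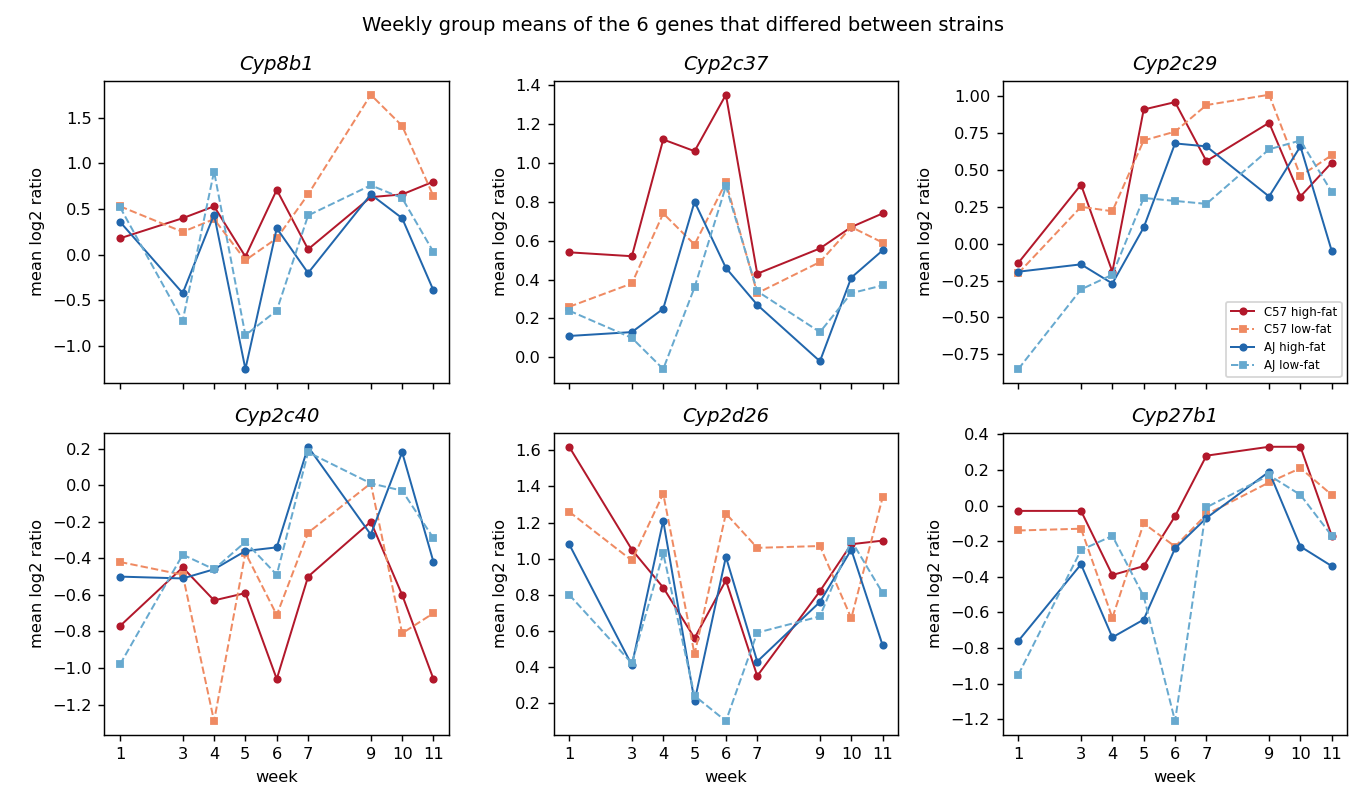
Weekly group means (y axis, log2 ratio to the pool, array median 0) against week (x axis) for the 6 P450 genes that passed the test between strains over both diets. Red is C57, blue AJ, solid lines the high-fat and dashed lines the low-fat diet; for Cyp2c37 the C57 line lies above the AJ line of the same diet in every week except week 7 on the low-fat diet, and for Cyp2c40 they lie mostly below.

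Week 0, which played no part in those fits, gave the strains' values at the start. Here the arrays of both diets of a strain were pooled and single arrays, which may not be separate mice, were the replicates. Cyp2c37 stood at 0.37 ± 0.44 (SD, n = 15) in C57 and at -0.01 ± 0.25 (n = 18) in AJ, a difference of 0.38 (two-sided permutation test, p = 0.0041, adjusted over 5 genes p = 0.0102). Cyp2c29 stood at 0.15 ± 0.31 (n = 16) in C57 and -0.30 ± 0.44 (n = 15) in AJ, a difference of 0.45 (permutation p = 0.00252, adjusted p = 0.0102). The later weeks gave 0.35 and 0.33; the week 0 test was added after the later values had been seen.

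The other genes gave no such difference at week 0. Cyp2c40 differed by -0.01 (n = 10 and 14, permutation adjusted p = 0.956), Cyp2d26 by 0.13 (n = 6 and 9, exact permutation adjusted p = 0.956) and Cyp27b1 by -0.04 (n = 11 and 16, permutation adjusted p = 0.956). The pooled diets stood apart for Cyp27b1 in C57, at -1.17 over 5 high-fat and -0.59 over 6 low-fat arrays (limma adjusted p = 0.802, unadjusted p = 0.00284). For Cyp2c37 they stood at 0.37 and 0.36 in C57 and at 0.00 and -0.02 in AJ, and for Cyp2c29 at 0.03 and 0.30 in C57 and at -0.23 and -0.40 in AJ. Cyp8b1 gave a value on 1 array of each strain and was not tested. Fewer probes were measured at week 0, and a p that misses the threshold does not show that the strains were alike.

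The diets were compared within each strain. In C57, 0 of 41 members passed (limma on weekly group means, background 0.119% of probes, 15 of 12587), with 2 members at an unadjusted p under 0.05 against 5.08% of probes. In AJ 0 of 41 passed (background 0%), again with 2 at an unadjusted p under 0.05 against 4.97%. The median difference, high-fat minus low-fat, was -0.02 in C57 and 0.01 in AJ, with 20 and 21 of 41 members positive. The 95% interval of every tested member lay within 1 log2 unit of 0 in both strains, and within 0.5 for 36 members in C57 and 33 in AJ.

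In C57 the largest differences were those of Cyp2c37 at 0.23 ± 0.09 (adjusted p = 0.802), Cyp2j13, of the arachidonic acid-oxidising Cyp2j subfamily, at 0.21 ± 0.08 (adjusted p = 0.779), Cyp2c39 at -0.21 ± 0.11 (0.992) and Cyp8b1 at -0.20 ± 0.17 (0.999). Cyp2c37 and Cyp2j13 were above the low-fat group in 9 of 9 weeks, with weekly differences from 0.01 to 0.48 and from 0.01 to 0.74. With week 8 and all arrays included, the difference of Cyp2j13 was -0.01. In AJ the largest were those of Cyp4b1 at -0.40 ± 0.14 (adjusted p = 0.862), Cyp2s1 at 0.35 ± 0.15 (0.953), Cyp1b1 at 0.29 ± 0.28 (0.997) and Cyp4v3, a fatty acid omega-hydroxylase of the eye and other tissues, at 0.27 ± 0.16 (0.997).

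The diet difference was tested between the strains, and 0 of 41 members passed (limma, background 0%), with 1 at an unadjusted p under 0.05 against 3.1% of probes. The largest differences, C57 minus AJ, were those of Cyp2s1 at -0.48 ± 0.21, Cyp1b1 at -0.32 ± 0.40, Cyp2a12, a steroid- and bile acid-oxidising form, at 0.31 ± 0.21 and Cyp4b1 at 0.25 ± 0.20, each with an adjusted p of 1.

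Averaged over both strains, which was added after the single strains had been seen, 0 of 41 members passed for diet (limma, background 0.207%), with 4 at an unadjusted p under 0.05 against 7.13% of probes. Cyp4b1 was the largest at -0.27 ± 0.10 (adjusted p = 0.486) and was below the low-fat mean in 9 of 9 weeks, by 0.08 to 0.52 on the log2 scale. Its weekly means in AJ were -2.61, -1.69, -1.83, -1.46, -3.10, -2.03, -1.42, -2.43 and -2.61 on the high-fat diet and -1.95, -1.42, -2.47, -1.05, -1.64, -1.54, -1.20, -2.06 and -2.28 on the low-fat diet. Those of Cyp4b1 in C57 were -2.18, -1.88, -2.54, -1.06, -1.73, -1.91, -1.38, -2.23 and -2.26 on the high-fat diet and -1.96, -1.82, -1.44, -1.32, -2.20, -1.38, -1.22, -2.18 and -2.32 on the low-fat diet. The ranges of the diets overlapped in both strains. Cyp4v3 (0.19 ± 0.12), Cyp2c39 (-0.18 ± 0.08) and Cyp8b1 (-0.16 ± 0.12) followed.

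For the P450 genes that are textbook responders to drugs or lipids, the errors set the bounds. Cyp2e1 differed between diets by 0.12 (95% interval -0.10 to 0.34) in C57 and by 0.06 (-0.16 to 0.28) in AJ. Cyp3a11, the target of the receptor PXR, differed by -0.09 (-0.31 to 0.14) and 0.07 (-0.15 to 0.29). Cyp2b10 differed by -0.10 (-0.40 to 0.19) and -0.02 (-0.31 to 0.28), and Cyp4a31, of the lipid-responsive Cyp4a subfamily, by 0.08 (-0.05 to 0.21) and 0.01 (-0.12 to 0.14).

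**Figure D4:**
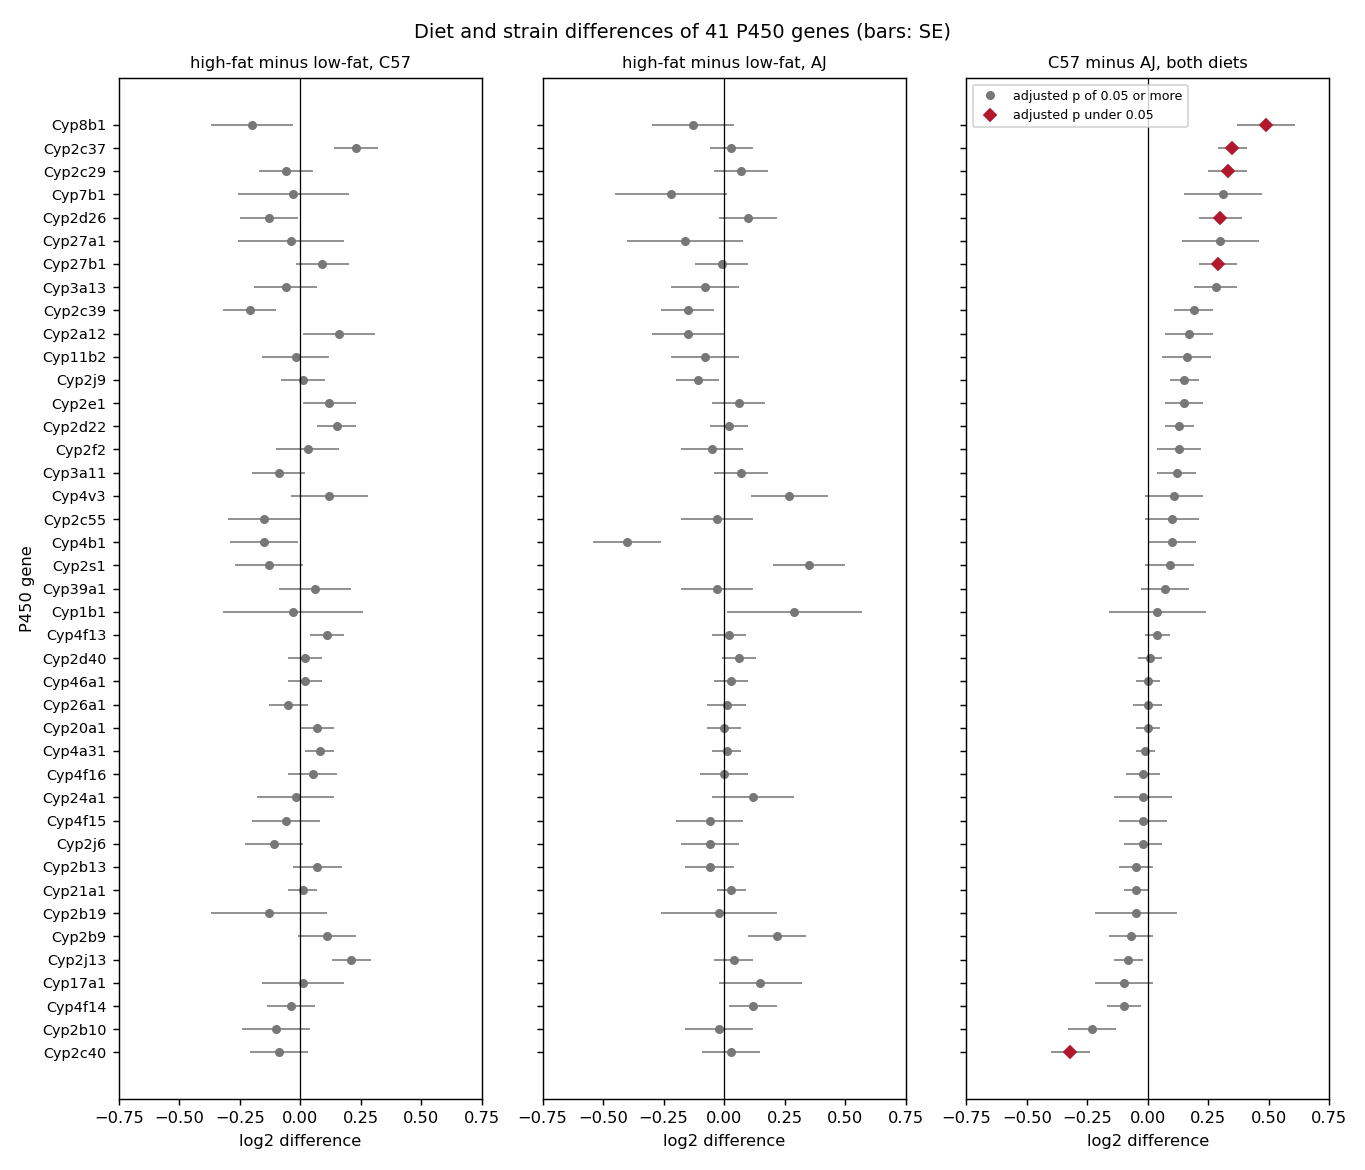
Log2 difference (x axis) of the 41 tested P450 genes (y axis, ordered by the strain difference) between diets in C57, between diets in AJ, and between strains over both diets. Points are estimates and bars their SE; no gene passes an adjusted p of 0.05 in the diet panels and 6 do in the strain panel, from Cyp8b1 at 0.49 to Cyp2c40 at -0.32.

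Within single weeks, with arrays as replicates, 0 members passed for diet in any of 10 weeks in either strain (limma; background over all weeks 0.00253% in C57 and 0.0912% in AJ). The smallest adjusted p was that of Cyp2c55 in AJ at week 4, with a mean of -1.99 over 10 high-fat arrays and -0.50 over 5 low-fat arrays (difference -1.49 ± 0.37, limma adjusted p = 0.0621). In that week of AJ 0.864% of all probes were called, and 10 of 41 members had an unadjusted p under 0.05 against 19.2% of all probes. The calls over all probes and weeks of AJ depended on the processing: the share of 0.0912% was 0.0287% (34 calls) with quantile normalization, 0.00344% (4 calls) with arrays of consecutive numbers averaged in pairs and 0.00553% (6 calls) with the sample number as a replicate block. Cyp7b1 was next there, at -0.81 and -0.05 (difference -0.76 ± 0.23, adjusted p = 0.0989). The smallest unadjusted p of a member in C57 was that of Cyp11a1 at week 1, with means of 1.32 and -0.02 over 8 arrays each (difference 1.34 ± 0.23, limma adjusted p = 0.136). At week 0, before or at the start of the diets, 2 of 23 members tested in C57 had an unadjusted p under 0.05, against 5.77% of all probes. In AJ it was 2 of 25 members, against 10.4% of all probes.

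Across the 36 group means, pairs of members went both ways: over 820 pairs the median r was 0.0362, with 35 pairs over 0.6 and 21 under -0.6. Pairs of other probes were not counted, so nothing particular to the P450 genes is read from this. The closest pairs were Cyp11b2 with Cyp2b13 (r = 0.792), Cyp2c29 with Cyp2c39 of the same chromosome (0.773, over 35 groups) and Cyp17a1 with Cyp2b9 (0.753). The most opposed were Cyp24a1 with Cyp4a31 (-0.814) and Cyp2b9 with Cyp46a1 (-0.811). Groups of a week share that week, so these values largely describe the week profiles and carry no test.

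The members split by role as follows in the strain comparison over both diets, in which 3.09% of all probes were called higher and 1.6% lower in C57. Of 22 tested members of families 1 to 3, 3 were higher and 1 lower in C57 (median 0.11); of 5 sterol and bile acid members, 1 was higher (median 0.30); of 3 vitamin members, 1 was higher (median 0.00). None of 7 family 4 members (median -0.01), 3 steroid hormone members (median -0.05) or the orphan Cyp20a1 passed. Of 6 tested genes known as female-biased in mouse liver, 5 had a negative difference (median -0.08) and 1, Cyp2c40, passed; the 3 tested male-biased genes were all positive (median 0.13) and none passed. The lists were drawn up with earlier results of these data known, so these counts are descriptions.

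Genes that work with P450 enzymes were read against the same background of 4.69% called in either direction. Of 13 tested genes that supply electrons or haem, 0 passed (limma, median -0.04); the nearest was Cyb5r1, a cytochrome b5 reductase, at -0.21 ± 0.06 (adjusted p = 0.0512). Of 27 tested regulators, 2 were lower in C57: Keap1, the sensor that holds back the oxidant-response factor Nrf2, at -0.29 ± 0.08 (adjusted p = 0.0345), and Klb, a co-receptor for the ileal hormone FGF15, at -0.27 ± 0.07 (adjusted p = 0.0167). Nr1i2, which encodes PXR, differed by -0.03 ± 0.09, and Hnf4a by 0.03 ± 0.06.

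Among 19 bile acid genes beside the P450s, Abcb11, the bile salt export pump, was higher in C57 by 0.50 ± 0.14 (limma adjusted p = 0.0447) and Slc27a5, which activates bile acids for conjugation, by 0.20 ± 0.06 (adjusted p = 0.0326), and the other 17 did not pass. Of 20 other phase I enzymes, Adh1 (0.65 ± 0.12), Ephx1 (0.36 ± 0.10), Aldh1a1 (0.23 ± 0.07) and Ces1g (0.23 ± 0.06) were higher, and Nqo1, a quinone reductase under Nrf2, was lower at -0.68 ± 0.13 (adjusted p = 0.00134). Of 5 cholesterol synthesis genes, Idi1 was higher (0.40 ± 0.10), and of 20 targets of PPAR alpha, Acaa1a (0.22 ± 0.06). By diet, 0 genes of these lists passed in either strain.

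Markers of cell types were read against the same background, with 4.69% of all probes called either way (3.09% higher and 1.6% lower in C57). Some hepatocyte markers also differed between the strains. Of 20 hepatocyte markers, 4 were higher in C57 (Arg1 at 0.94 ± 0.10, Ahsg at 0.47 ± 0.09, Fgb at 0.37 ± 0.07 and Tdo2 at 0.30 ± 0.08) and 2 lower (Alb at -0.35 ± 0.08 and Trf at -0.45 ± 0.06), with a median of 0.10. The weekly medians of the hepatocyte markers had a median over the weeks of 0.90 and 0.87 in C57 and 0.75 and 0.88 in AJ, on the high-fat and low-fat diet. Of 9 skeletal muscle markers 1 was lower, and of 12 kidney and 10 leukocyte markers 0 passed (limma; medians -0.12 and 0.06). Their part in the P450 differences was not tested, and in whole liver fewer cells of a type and less RNA per cell cannot be told apart.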

How the data were processed

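Liver RNA was hybridised with Cy5 against a Cy3-labelled tissue pool on spotted 2-colour arrays, per the labels. The deposited values, 1 column per array, are the authors' processed numbers with no unit stated: judged from the values, they are linear ratios of liver to pool whose mean over measured probes is 1 on every array. Background correction and spot filters are not given in the sources used here. Empty cells (42.4%), negative values (0.251%) and zeros (0.271%) were left out as unmeasured. Values were taken to log2 and centred on each array's median over 12587 probes; a probe was tested with at least 100 arrays and with at least 3 arrays in at least 6 of 9 weeks in each strain and diet. Weekly group means were fitted in limma 3.58.1 (R 4.3.3) with a term for week and Benjamini-Hochberg adjustment at 0.05; the scripts were tested on simulated data. Probe symbols came from the platform table, and all 46 members matched RefSeq by Entrez identifier. Named are members past the threshold, the 4 largest differences of each comparison and the 5 highest and lowest levels; Cyp2e1, Cyp3a11, Cyp2b10, Cyp4a31 and others outside that rule were chosen after their values were seen. The members and lists were chosen with earlier results of these data known. Alternatives changed the centring, normalization, probe filter, group summary, arrays, weeks, unit of replication and pairing. The values are array ratios, so read depth does not apply, and what limits precision was not tested.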

Additional observations from a re-analysis of the deposited data

Results flagged for a closer look

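In 3 of 30 series of weekly differences, 1 week lay far from the other 8. The diet difference of Cyp2j13 in C57 was 0.74 in week 11, where the next highest week was at 0.37. The strain difference of Cyp2c29 on the low-fat diet was -0.25 in week 10, where the next lowest week was at 0.25. Over both diets the strain difference of Cyp2c29 was -0.29 in week 10, where the next lowest was at 0.26; this shares its arrays with the value before. A far point of this size is found by chance in about 1 in 20 such series. Without week 10, the low-fat difference of Cyp2c29 was 0.48 and passed (limma adjusted p = 0.0125).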

How the results depend on the processing

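Of 739 recalculated values of single genes, 692 kept their direction and side of the threshold, 28 lost the call, 17 gained one and 2 reversed. Most of the 739 were not called in the main fits, so most that kept their side stayed uncalled. All 28 losses fell on the 6 strain calls over both diets and the call of Cyp2c37 on the high-fat diet. Over both diets with a week left out, Cyp2d26 kept its call in 2 of 9 fits, Cyp27b1 in 3, Cyp2c40 in 5 and Cyp8b1 in 6. Cyp2c37 and Cyp2c29 kept theirs in all 9. The 2 reversals were the C57 diet difference of Cyp2j13, at -0.01 with week 8 and all arrays, and the C57 low-fat slope of Cyp2b19. That slope ran from -0.152 to 0.0414 when a week was left out, the latter without week 11. Counts of members are followed by the share of all probes called in the same fit. On the low-fat diet the strain comparison called 2 members with quantile normalization (1.96%), 1 with the 70% filter (2.39%), 1 with group medians (1.14%), 3 with single arrays as replicates (3.63%), and 0 to 2 when a week was left out (2 without week 10, 1.25%). On the high-fat diet it called 2 with the 70% filter (3.94%), 4 with single arrays (6.3%), 0 without a week term (0.437%; Cyp2c37 at 0.45, adjusted p = 0.167), and 1 to 2 when a week was left out (2 without week 6, 1.91%). Over both diets 1 member, Cyp2c37, passed without a week term (1.17%), and 2 to 7 passed when a week was left out (2 without week 11, 3.73%; 3 without week 3, 5 or 7, 4.11%, 3.58% and 3.5%; 7 without week 4, 4.56%); with group medians Cyp27b1 had 0.24 (adjusted p = 0.122). Slopes called 0 to 1 member in C57 on each diet, the 1 being Cyp2b13 without week 5 (4.71% high-fat, 1.19% low-fat). In AJ high-fat they called 1 with quantile normalization (Cyp2c39, 3.37%) and 0 to 1 when a week was left out. The member called there was Cyp11b2 without week 5 (6.4%) and Cyp2c39 without week 6 (5.09%). In AJ low-fat they called 1 with group medians (Cyp2c29, 0.953%) and 0 to 2 when a week was left out. The counts there were 2 without week 5 (2.34%) and 1 without week 6 (2.01%). In single weeks of AJ 1 member passed without centring (0.126%). The median level was -0.2 without centring. The F test among weeks called 28 of 33 to 35 of 36 members when a week was left out, against 78.3% to 84.3% of all probes. With the sample number as a replicate block, 0 members passed in single weeks of either strain. Calls over all probes in AJ were then 0.00553% (6 calls), against 0.0912% without the block. Over 178 same-numbered pairs the median r was -0.00202, 41 exceeded 0.1 and 18 correlated best with their own number. Equal numbers were therefore not taken to pair samples. The numbers run on across weeks and are shifted between the diets in some groups. Pairing by position within a group was therefore not checked. Signals over background were not in the values used, so no detection limit is given.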

Other observations

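9 further P450 probes gave a value on fewer than 100 arrays. Within the 9 weeks of the fits, Cyp2a4, a female-biased steroid hydroxylase, had a median of 0.24 over 59 arrays (-2.42 to 2.30), Cyp2j5, an epoxygenase of kidney and liver, -0.17 over 58 (-2.67 to 2.18), Cyp2d34 1.25 over 28 (-0.68 to 2.37), Cyp2c70, which makes muricholic acids in the mouse, 0.55 over 26 (-0.98 to 1.75) and Cyp2g1, an olfactory form, 0.50 over 19 (-2.57 to 2.03). The pseudogene probe Cyp4f41-ps had a median of 0.50 over 18 arrays, Cyp2d13 of 0.35 over 7, the male-specific Cyp4a12a of 0.10 over 7, and Cyp2u1 gave 1 value, -0.20.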
